A study of Mus musculus with 48 samples.

Results

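Fragments of young mouse bone that had been kept in culture were compared after a change of medium: 3 libraries titled as medium transfer and 3 titled as control, which are 6 of the 48 samples of the series. The groups were taken from the sample titles. All 6 libraries came from C57BL/6J wild-type mice, 1 month old, and all carry the treatment label "No treatment". The protocol in the labels covers both groups: fragments of femur, tibia and parietal bone from mice 1 month and 18 months old conditioned medium for 24 h, and bone fragments 1 month old, freed of their own medium, were then held in conditioned medium for another 48 h. The labels do not say which of the 2 groups had medium from young donors and which from old donors, so the groups are called medium transfer and control throughout. They also do not say whether the 3 libraries of a group came from separate animals or cultures, so a p-value here reflects the spread among these libraries, which may be technical. Of 55335 gene rows, 40477 had a mean of at least 1 and were tested.

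Bone holds several cell types that work on the same matrix. Osteoblasts lay down collagen and mineral and some of them become osteocytes, which stay buried in the matrix and signal through secreted proteins such as sclerostin. Osteoclasts, cells of the monocyte lineage that form under the control of RANKL, dissolve mineral with acid and degrade collagen with cathepsin K. Cut fragments also carry marrow cells, blood and vessels, and in such bulk RNA fewer cells of a type and less RNA per cell cannot be told apart.

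Values were deposited as FPKM, which scales the fragments of a gene by transcript length and library depth. Most of the deposited signal of 5 of the 6 libraries lay in 12 rows of predicted genes, which were dropped. They held 66.1%, 5.80% and 89.9% of the FPKM sum in the transfer libraries, against 86.1%, 88.6% and 81.7% in the controls. Transfer library 2 therefore stood apart from the other 5. These rows resemble the major satellite, the tandem repeat next to mouse centromeres. A run of 30 bases occurred in the annotated transcripts of 12 of the 12 rows and in those of 1 of 55438 other genes of GENCODE M21 (0.0018%). Between 53.3% and 96.2% of the 20-base words of a dropped row also occurred in another dropped row, so fragments could not be assigned to one of them with certainty. The shared run is shown in capitals within 60 bases of the 4 rows with the highest values, since their removal sets the scale of every result below; positions are on GRCm38.
Gm10800 (chr2:98667087-98667146, minus strand): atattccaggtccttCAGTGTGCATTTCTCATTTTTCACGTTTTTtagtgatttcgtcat
Gm10801 (chr2:98662237-98662296, plus strand): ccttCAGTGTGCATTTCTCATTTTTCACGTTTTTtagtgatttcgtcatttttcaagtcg
Gm21738 (chr14:19417307-19417366, minus strand): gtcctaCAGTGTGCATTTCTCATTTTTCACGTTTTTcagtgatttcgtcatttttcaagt
Gm10718 (chr9:3023702-3023761, plus strand): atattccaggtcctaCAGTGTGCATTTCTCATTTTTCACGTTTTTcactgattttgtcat

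The first of these rows, Gm10800, alone had a deposited FPKM of 325415, 18329 and 751202 in the transfer libraries, against 671726, 682693 and 586846 in the controls. After the 12 rows were dropped, each library was rescaled to a total of 1000000, and all levels below are these rescaled FPKM, written rFPKM. Depth was low. Low values clustered only weakly at whole fragments, and the rough estimates from them were 1.5, 6.5 and 3.2 M fragments in the transfer libraries, against 3.2, 3 and 2.7 M in the controls. On a transcript of 1 kb, a single fragment was worth about 2.7, 0.34 and 2.8 rFPKM in the transfer libraries, against 2.1, 2.8 and 2.1 rFPKM in the controls. Across the 3757 genes with a mean of at least 20, Spearman correlations were 0.62 to 0.78 among transfer libraries and 0.81 to 0.84 among controls, and 0.70 to 0.83 between the groups. The transfer libraries were thus less alike than the controls, and each of the other 5 correlated least with transfer library 1.

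The cultured fragments expressed a bone program led by one gene. Spp1, which encodes osteopontin, a secreted phosphoprotein of bone matrix, was the highest gene in 6 of 6 libraries. It stood at 165128, 228332 and 163474 rFPKM in the transfer libraries, against 259330, 207740 and 233948 rFPKM in the controls. That is 16.5%, 22.8% and 16.4% of the rescaled signal in transfer libraries, against 25.9%, 20.8% and 23.4% in controls. The ranges overlapped, and the log2 fold change of transfer over control was -0.34 (95% interval -0.93 to 0.24; limma adjusted p = 1).

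**Figure D1:**
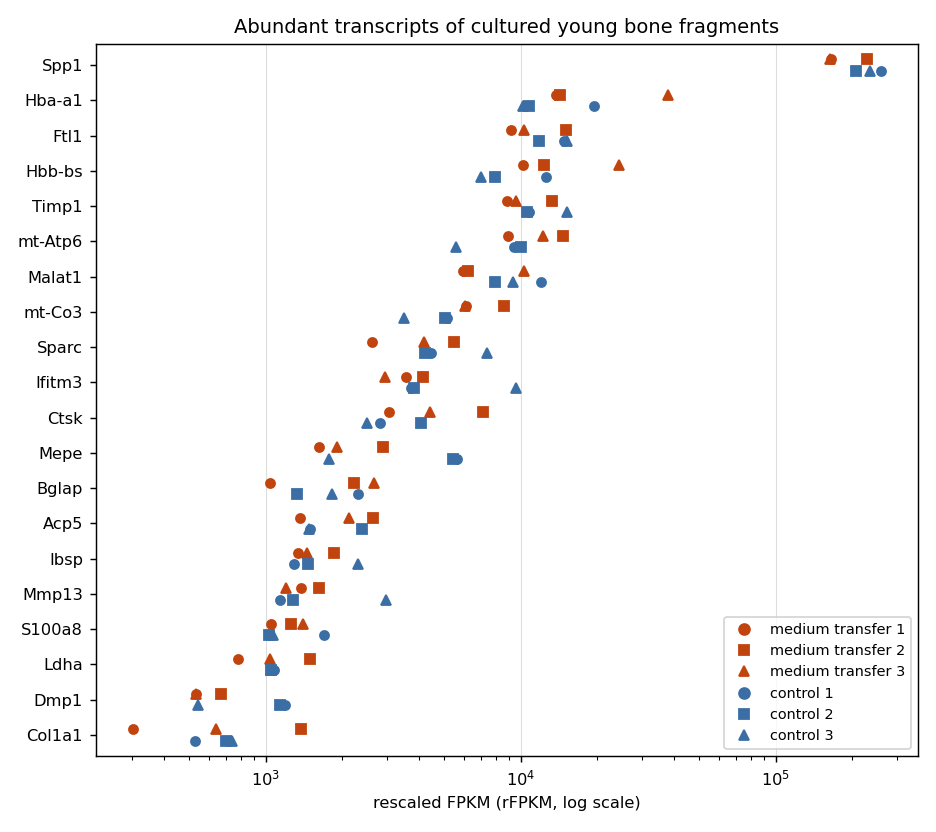
Rescaled FPKM (rFPKM, log axis) of 20 abundant transcripts, 1 row per gene, ordered by level; orange symbols are the 3 medium transfer libraries and blue symbols the 3 control libraries. Spp1 lies between 163474 and 259330 rFPKM, above each of the other genes shown, and the symbols of both groups interleave for most genes.

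Behind Spp1 ranked Gm23935 and CT010467.1, rRNA-like rows with medians of 30597 and 26693 rFPKM, then the globins Hba-a1, Hba-a2 and Hbb-bs, ferritin light chain Ftl1 and Timp1, an inhibitor of matrix metalloproteinases. Timp1 had 8833, 13329 and 9599 rFPKM in transfer libraries, against 10814, 10638 and 15277 rFPKM in controls. Other bone transcripts of high level were Sparc (osteonectin, a collagen-binding matrix protein), Ctsk (cathepsin K), Mepe (a phosphoglycoprotein of osteocytes), Bglap (osteocalcin), Acp5 (the acid phosphatase of osteoclasts) and Ibsp (bone sialoprotein). Their medians over the 6 libraries were 4325, 3565, 2392, 2016, 1807 and 1457 rFPKM, in that order. Collagenase 3, Mmp13, followed at a median of 1330 rFPKM. Ranges of these genes overlapped between the groups. The pairs Hba-a1 and Hba-a2, and Bglap and Bglap2, are near-identical, so the split of fragments within each pair is uncertain; so is that between mitochondrial genes and nuclear copies such as Gm10925 and Gm28437, whose values mirrored mt-Atp6 and mt-Co3.

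The labels also hold 3 libraries of bone 18 months old, whose protocol describes femoral and tibial cortical bone with marrow and names no culture. They stand in a table normalized separately, so their rescaled values are set beside those of the fragments without a test, and age, dissection and culture cannot be told apart. In the 6 cultured libraries Spp1 was at 163474 to 259330 rFPKM, against 478, 544 and 511 rFPKM in the old bone. Timp1 was at 8833 to 15277 rFPKM in culture, against 30.6, 25.6 and 20.5 in old bone, and Mmp13 at 1139 to 2964, against 7.52, 7.62 and 6.33. Marrow transcripts stood the other way round. The 15 neutrophil markers summed to 2580 to 4076 rFPKM in culture, against 123693, 133317 and 127632 rFPKM in old bone. The 14 markers of the B lineage summed to 225 to 737 rFPKM in culture, against 35143, 37615 and 34932 rFPKM. Bglap did not stand apart, with 1044 to 2671 rFPKM in culture, against 2270, 1509 and 2465 rFPKM in old bone.

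**Figure D2:**
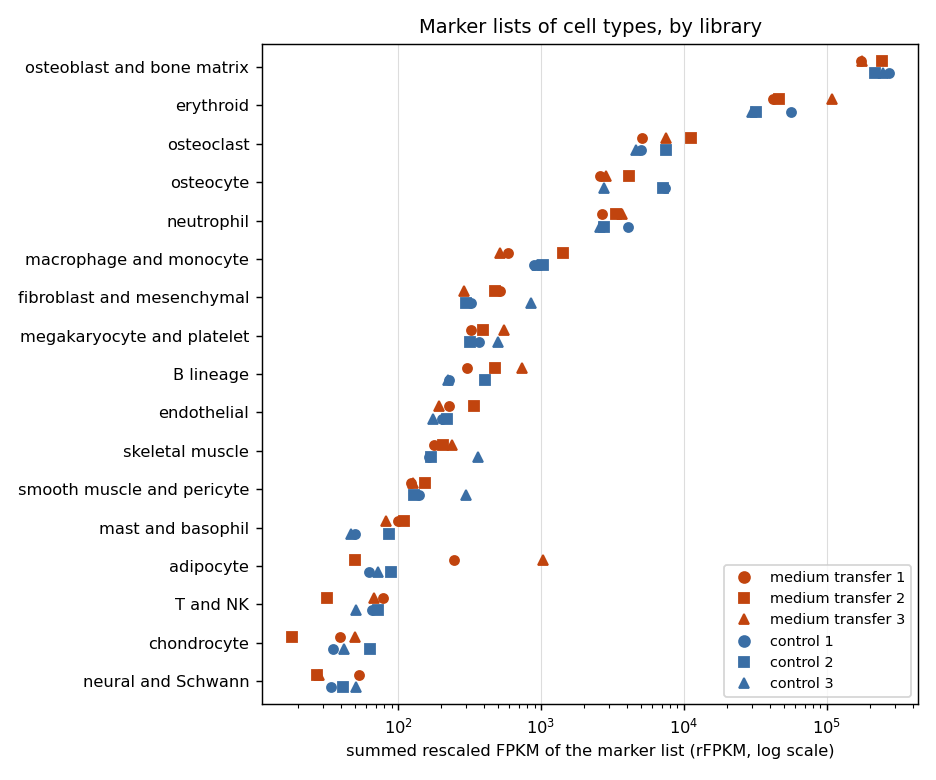
Summed rescaled FPKM (rFPKM, log axis) of the marker list of 17 cell types in each library, ordered by level, with transfer libraries in orange above control libraries in blue. Lists of bone matrix, red cells, osteoclasts, osteocytes and neutrophils have the highest sums, and chondrocyte and neural lists the lowest; transfer library 3 lies apart in the erythroid and adipocyte rows.

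Marker lists were set against the tissue label. Summed osteoblast and matrix markers were at 172228 to 242419 rFPKM in transfer libraries, against 217448 to 270711 in controls, most of it Spp1. Osteoclast markers summed to 5114, 11221 and 7485 rFPKM in transfer libraries, against 5002, 7436 and 4593 in controls, with 0 of 15 members listed at 0 in any library. Chondrocyte markers were near the floor, at 18 to 50 rFPKM in transfer libraries, against 35 to 64 rFPKM in controls.

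The comparison itself asks whether transcripts differed between the fragments titled as medium transfer and those titled as control. No gene passed an adjusted p below 0.05 with limma (0 of 40477, 0.00%). The smallest adjusted p was 0.397. At an unadjusted p below 0.05 there were 1219 genes (3.01%), 333 with higher and 886 with lower values in the transfer libraries. In 798 genes (1.97%) each transfer library lay above each control library, and in 1579 genes (3.90%) each lay below. An exact permutation test of 3 against 3 libraries cannot go below 0.1. The median log2 fold change of all genes tested was -0.14, and 40.6% of them were positive, so genes and lists are read against those values. The median depended on level. It was -0.20 for means of 1 to 5, -0.11 for 5 to 20, -0.04 for 20 to 100 and -0.07 for at least 100. For abundant genes the distance from -0.14 is therefore larger than that from genes of similar level when a value lies above it.

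**Figure D3:**
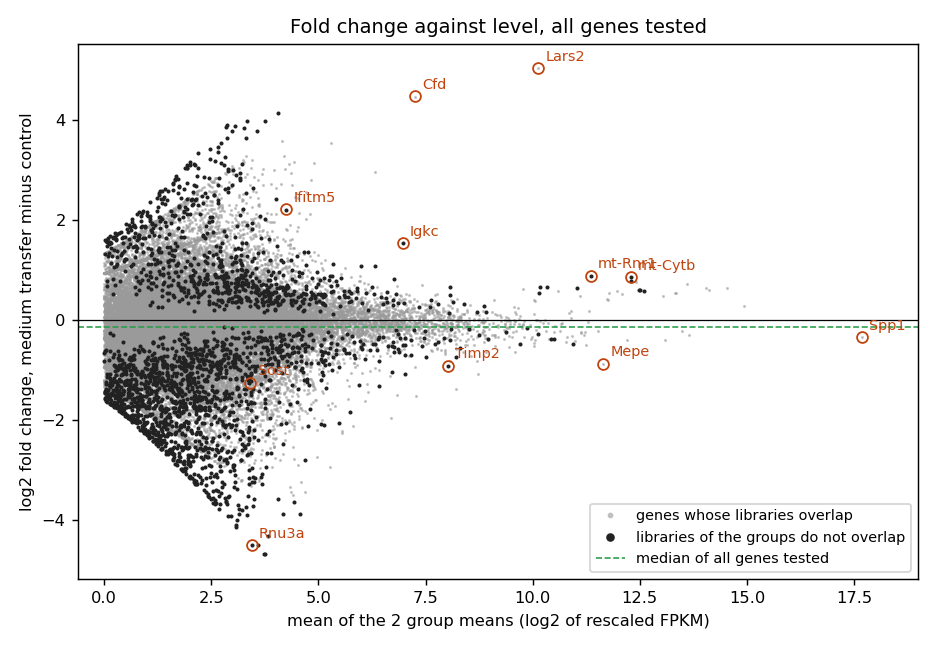
Log2 fold change (medium transfer minus control) against the mean of both group means (log2 of rescaled FPKM) for the 40477 genes tested; black points are genes whose libraries do not overlap between groups, grey points the others, and the dashed line is the median of -0.14. The spread narrows with level: genes of high mean lie close to 0, apart from named exceptions such as Lars2, Cfd and Mepe.

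What the design could resolve depended on the level of a gene. The median half-width of the 95% interval was 2.00 on the log2 scale (4.0-fold) for the 23276 genes with a mean of 1 to 5, and 1.54 (2.91-fold) for the 13444 genes of 5 to 20. It was 0.79 (1.73-fold) for the 2979 genes of 20 to 100 and 0.58 (1.49-fold) for the 778 genes of at least 100. Library weights and scaling touch every count below. Weighting libraries by their estimated quality called 307 genes (101 with higher, 206 with lower values). Most weight went to transfer library 3 (6.51, against 0.344 and 0.313 for transfer libraries 1 and 2). When genes with a mean under 20 were left out, a setting added with the data in view, weighting called 0. Weights were estimated anew there, at 0.721, 0.256 and 1.46 for the transfer libraries and 2.04 for control library 1, so filter and weights changed together. With the 12 rows kept and rescaled, the all-gene median was 0.77 and 2 genes were called, Gm10800 and Gm10801; with the values as deposited it was 0.45 and 4 genes were called, these and Cfd and Lars2.

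Leading osteocyte genes averaged lower in the transfer libraries, with 2 of the 3 controls high. Of 11 members tested, 0 were called, 3 had positive and 8 negative fold changes, and the median was -0.24, against -0.14 over all genes. With the 12 rows kept, the list median was 0.26 against 0.45 over all genes as deposited, and 0.68 against 0.77 when rescaled. Mepe was at 1615, 2877 and 1906 rFPKM in transfer libraries, against 5645, 5417 and 1772 in controls. Dmp1, an acidic matrix protein that regulates phosphate and mineral, was at 532, 666 and 535 rFPKM in transfer libraries, against 1189, 1135 and 542 in controls. For both genes control libraries 1 and 2 stood high and control library 3 lay among the transfer libraries, so the groups overlapped.

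Sost, which encodes the Wnt inhibitor sclerostin, showed the same split of the controls: 3.29, 4.17 and 9.85 rFPKM in transfer libraries, against 18.3, 22.1 and 6.27 in controls. Its log2 fold change was -1.25 (95% interval -2.61 to 0.11), that of Mepe -0.87 (-1.85 to 0.11) and that of Dmp1 -0.65 (-1.33 to 0.04), each with a limma adjusted p of 1. Without control library 3 the log2 fold changes were -1.76 for Sost, -1.42 for Mepe and -1.01 for Dmp1. In the same order they were -1.06, -0.58 and -0.45 without control library 1, and -0.93, -0.61 and -0.48 without control library 2. With the 12 rows kept and rescaled they were -0.12, 0.29 and 0.51, against 0.77 over all genes. Phex, an endopeptidase that restrains FGF23, was low at 2.23 to 6.70 rFPKM in transfer libraries, against 4.005 to 7.22 in controls. Fgf23 itself, the phosphate hormone of osteocytes, did not reach the filter.

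**Figure D4:**
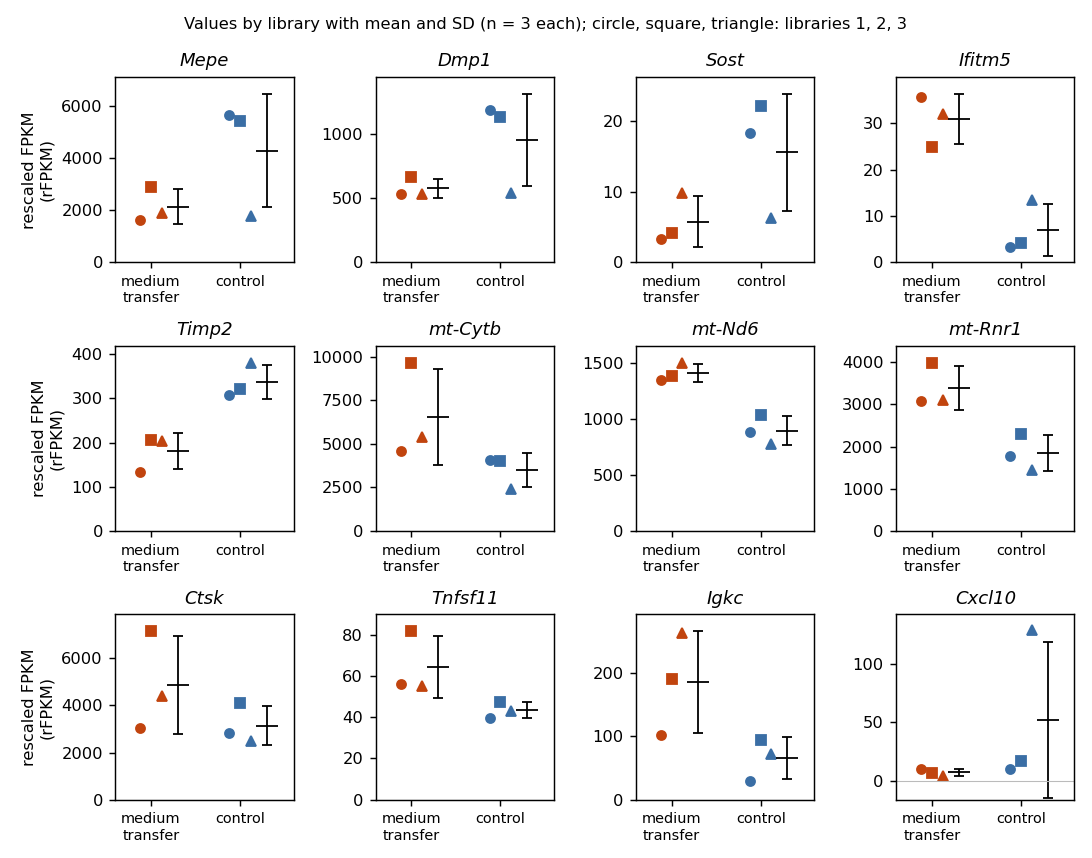
Rescaled FPKM (rFPKM, linear axes) of 12 genes in each library, with group mean and SD to the right of the points (n = 3 each), medium transfer on the left of each panel and control on the right. Ifitm5, Timp2, mt-Cytb, mt-Nd6, mt-Rnr1, Tnfsf11 and Igkc show no overlap between groups, whereas Mepe, Dmp1, Sost, Ctsk and Cxcl10 overlap.

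Osteoblast and matrix genes centred near 0. Of 20 members 0 were called, 11 were positive and 9 negative, with a median of 0.06. Col1a1, the main collagen of bone, was at 302, 1380 and 641 rFPKM in transfer libraries, against 530, 700 and 738 in controls. Its highest and lowest values both belonged to transfer libraries, and the log2 fold change was -0.01 (95% interval -1.06 to 1.04). Runx2 and Sp7, the transcription factors that direct osteoblast formation, overlapped as well, at -0.14 and 0.21.

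In 1 of 20 members the groups did not overlap, against 1.97% of all genes in that direction and 2.54% of those with a mean of 5 to 20. Ifitm5 (chromosome 7, 140948958 to 140950291, minus strand, GRCm38, protein-coding), a small membrane protein made by mineralizing osteoblasts, was at 35.7, 25.0 and 32.1 rFPKM in transfer libraries, against 3.30, 4.12 and 13.6 in controls. Every transfer library lay above every control, and the log2 fold change was 2.21 ± 0.51 (SE; 95% interval 1.04 to 3.37; limma adjusted p = 0.922). The reads behind it were few: about 10, 56 and 8.8 fragments in transfer libraries, against 1.2, 1.1 and 4.9 in controls. Its log2 fold change lay between 1.67 and 2.75 in the 20 alternatives that tested it. In old bone it stood at 74.9, 54.5 and 47.3 rFPKM.

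Osteoclast genes leaned towards higher values in the transfer libraries without passing the test. Of 15 members 0 were called, 12 were positive and 3 negative, and the median was 0.40, against -0.14 over all genes; it stayed positive, at 0.17 to 1.41, in the alternatives. Ctsk was at 3047, 7142 and 4406 rFPKM in transfer libraries, against 2814, 4083 and 2510 in controls (log2 fold change 0.58, 95% interval -0.15 to 1.30). Transfer library 2 was highest and the groups overlapped. Without that library the log2 fold change of Ctsk was 0.26, and the median of the list was 0.24 against 0.13 over all genes, a distance of 0.11, against 0.54 with the 6 libraries.

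In 2 of 15 osteoclast genes each transfer library lay above each control, against 1.97% of all genes and 2.54% to 3.42% of those at similar levels: Tcirg1, a subunit of the proton pump that acidifies the resorption pit, and Dcstamp, needed for cell fusion. Tcirg1 was at 49.4, 62.9 and 58.3 rFPKM in transfer libraries, against 32.0, 49.1 and 39.1 in controls. Dcstamp was at 17.8, 22.9 and 29.8 rFPKM in transfer libraries, against 17.4, 17.3 and 9.20 in controls. Both gaps between the groups were narrow, and log2 fold changes were 0.51 (95% interval -0.12 to 1.14) and 0.67 (-0.22 to 1.56).

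Of the signals that control osteoclasts, 1 of 8 did not overlap. The share in that direction was 1.97% of all genes and 3.42% of those with a mean of 20 to 100. Tnfsf11, which encodes RANKL, was at 56.1, 81.5 and 55.3 rFPKM in transfer libraries, against 39.7, 47.5 and 43.1 in controls. These values did not overlap, with a log2 fold change of 0.54 (95% interval -0.08 to 1.15; limma adjusted p = 1). Its decoy receptor Tnfrsf11b, osteoprotegerin, was at 26.2, 85.6 and 43.2 rFPKM in transfer libraries, against 43.0, 58.2 and 33.0 in controls, which overlapped (0.08). Csf1, the growth factor of the monocyte lineage, had 0.03. The list of 8 regulators had a median of 0.08, with 6 positive and 2 negative members and 0 called.

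Proteases of the matrix and their inhibitors were not shifted as a group. Of 17 members 0 were called, 8 were positive and 9 negative, with a median of -0.01. In 1 member the transfer libraries all lay below the controls, against 3.90% of all genes and 5.14% of those with a mean of at least 100. That member was Timp2, an inhibitor that also takes part in the activation of pro-MMP2. It had 133, 206 and 204 rFPKM in transfer libraries, against 308, 321 and 381 in controls. All transfer values lay below all controls, with a log2 fold change of -0.91 ± 0.24 (SE; 95% interval -1.44 to -0.38; limma adjusted p = 1). With the 12 rows kept and rescaled the log2 fold change was 0.25, against 0.77 over all genes. Mmp3, stromelysin, varied within both groups, with 657, 78.7 and 92.3 rFPKM in transfer libraries, against 235, 79.9 and 1140 in controls.

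Transcripts of the mitochondrial genome, which encode subunits of the respiratory chain and ATP synthase, averaged higher in the transfer libraries over nearly the whole list. Of 13 mRNAs 0 were called, 12 were positive and 1, mt-Nd3, negative at -0.16. In 6 of 13 the transfer libraries all lay above the controls, against 1.97% of all genes and 3.73% of those with a mean of at least 100, and the median was 0.53. These genes are cut from long shared precursors, so they are not independent of each other. Summed, they stood at 45563, 73982 and 55021 rFPKM in transfer libraries, against 42380, 45028 and 28895 in controls; the lowest transfer and the highest control library differed little.

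The other 7 mRNAs overlapped, among them mt-Atp6, at 8932, 14697 and 12199 rFPKM in transfer libraries, against 9439, 10047 and 5574 in controls. Members without overlap include mt-Nd6 and mt-Cytb. mt-Nd6, the only protein-coding gene of the light strand, was at 1351, 1388 and 1505 rFPKM in transfer libraries, against 884, 1033 and 777 in controls. Its groups were well apart, with a log2 fold change of 0.66 ± 0.18 (SE; 95% interval 0.25 to 1.08; limma adjusted p = 1). mt-Cytb, a subunit of complex III, was at 4569, 9650 and 5371 rFPKM in transfer libraries, against 4088, 4040 and 2402 in controls, at 0.86 (95% interval 0.13 to 1.58). The ribosomal RNA mt-Rnr1 was at 3069, 3987 and 3095 rFPKM in transfer libraries, against 1787, 2303 and 1457 in controls, at 0.89 (95% interval 0.39 to 1.39).

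Transfer library 2, with the smallest share of the 12 dropped rows, had the highest mitochondrial sum. Transfer library 3, with the largest share, had the second highest sum. Signal of rRNA-like and 7S rows, which are not mRNA, made up 7.37%, 7.95% and 9.69% of transfer libraries, against 6.44%, 7.77% and 4.83% of controls. The part of either measure in the result was not tested. Without transfer library 2 the median of the list was 0.37 against 0.13 over all genes, so its distance from all genes was 0.24, against 0.67 with the 6 libraries. Without control library 3 it was 0.37 against -0.14 over all genes. Nuclear genes of oxidative phosphorylation had a median of -0.05, with 15 of 45 positive and 30 negative. With median-of-ratios scaling that median was 0.11, against -0.06 over all genes, and the difference between the lists was not tested. With the 12 rows kept and rescaled, the mitochondrial median was 1.69 against 0.77 over all genes.

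**Figure D5:**
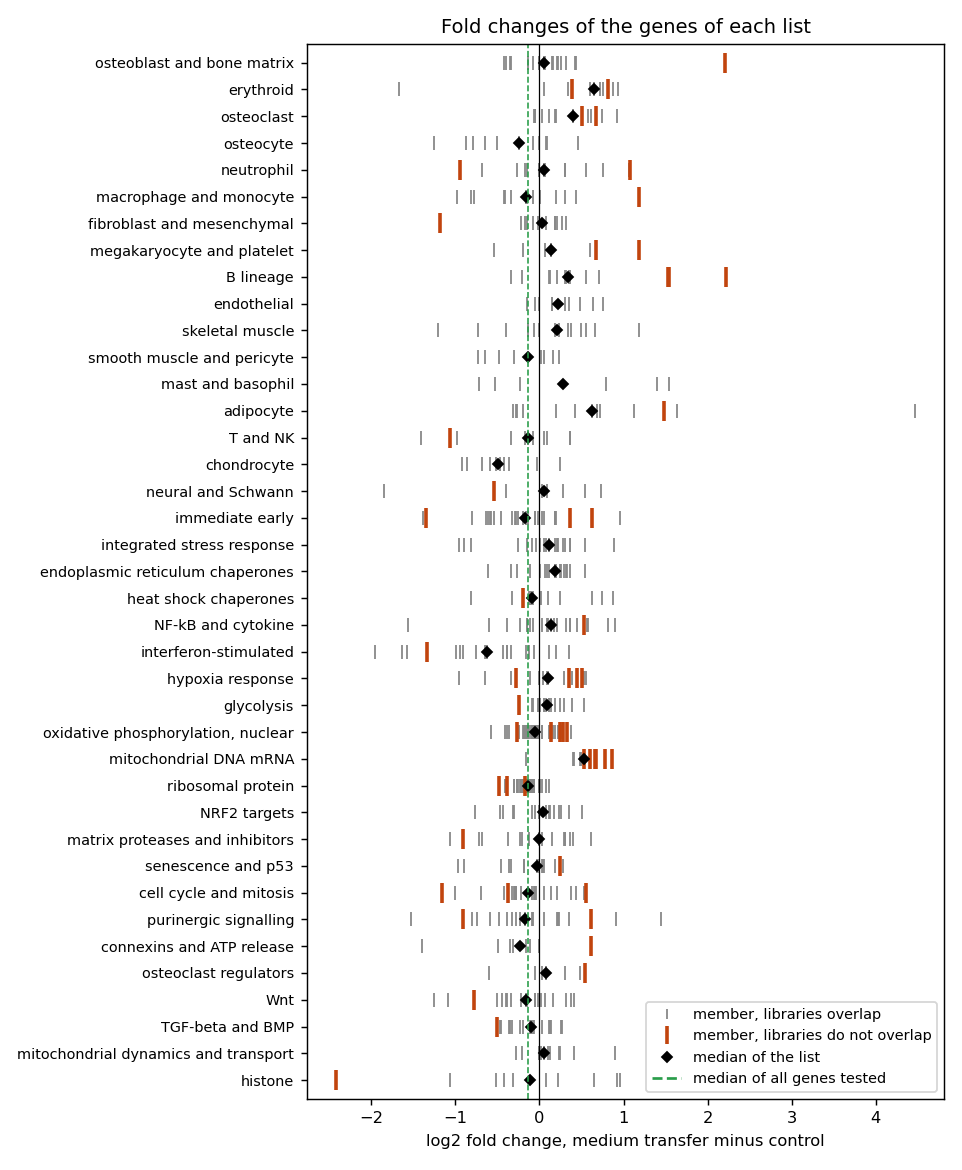
Log2 fold changes (medium transfer minus control) of the tested members of 39 gene lists; grey ticks are members, orange ticks are members whose libraries do not overlap between groups, diamonds are list medians and the dashed line is the median of all genes (-0.14). Mitochondrial mRNAs cluster right of 0 with a median of 0.53, and interferon-stimulated genes spread to the left with a median of -0.62. With the 12 rows kept and rescaled the interferon median was 0.51, against 0.77 over all genes.

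Interferon-stimulated genes had a median of -0.62, with 3 of 21 positive and 18 negative and 0 called, and this rested on control library 3. The list summed to 230, 333 and 342 rFPKM in transfer libraries, against 215, 321 and 1206 in controls. Cxcl10, a chemokine induced by interferon, was at 10.3, 6.49 and 4.33 rFPKM in transfer libraries, against 10.3, 16.8 and 130 in controls. Bst2, tetherin, was at 37.4, 128 and 97.4 rFPKM in transfer libraries, against 68.2, 99.9 and 490 in controls. Without control library 3 the median of the list was -0.08, against -0.14 over all genes.

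Control library 3 also stood high in stromal genes. Lum (lumican, a proteoglycan that organizes collagen) was at 223, 145 and 56.4 rFPKM in transfer libraries, against 96.0, 57.2 and 383 in controls. Col3a1, collagen of soft connective tissue, was at 58.8, 52.6 and 47.0 rFPKM in transfer libraries, against 40.3, 38.2 and 148 in controls. The fibroblast list summed to 518, 479 and 290 rFPKM in transfer libraries, against 325, 296 and 847 in controls. Its median was 0.03, with 6 positive and 6 negative members and 0 called. How far tissue composition took part in the values of this library was not tested.

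Erythroid and adipocyte markers had their highest sums in transfer library 3. Erythroid markers summed to 41872, 45935 and 109237 rFPKM in transfer libraries, against 55956, 31921 and 29773 in controls. Of 11 tested, 10 were positive and 1 negative, with a median of 0.65 and 0 called; without transfer library 3 the median was 0.38. Adipocyte markers summed to 247, 50 and 1033 rFPKM in transfer libraries, against 63, 89 and 72 in controls, and 5 of 14 members were listed at 0 in transfer library 2. Their median was 0.62, and -0.33 without transfer library 3. Cfd (adipsin, a complement protease secreted by adipocytes) was at 144 and 767 rFPKM in transfer libraries 1 and 3 and listed at 0 in transfer library 2, against 0, 2.38 and 2.04 in controls.

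Markers of B cells also leaned upwards. Of 14 members 12 were positive and 2 negative, the median was 0.33 and 0 were called; the median was 0.00 without transfer library 3. Igkc, the constant part of the kappa light chain, was at 102, 191 and 262 rFPKM in transfer libraries, against 29.4, 94.8 and 72.0 in controls (log2 fold change 1.54, 95% interval 0.47 to 2.61; limma adjusted p = 1). Its groups did not overlap, as in 3 of the 14 members, against 1.97% of all genes in that direction. Among genes with a mean of at least 100, such as Igkc, that share was 3.73%. Cd79a, which carries the signal of the B cell receptor, did overlap, at 29.2, 61.9 and 79.7 rFPKM in transfer libraries, against 32.0, 67.0 and 35.2 in controls.

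Neutrophil markers were level, with a median of 0.06 over 15 members and 0 called. Without overlap, 1 member lay higher and 1 lower, against 1.97% and 3.90% of all genes, and 3.42% and 3.69% of those with a mean of 20 to 100. S100a8, a calcium-binding alarmin, was at 1047, 1257 and 1399 rFPKM in transfer libraries, against 1690, 1034 and 1066 in controls. Elane, the elastase of neutrophil precursors, lay higher without overlap, at 70.3, 157 and 104 rFPKM in transfer libraries, against 67.1, 44.9 and 39.2 in controls. Lcn2, an iron-trapping protein that osteoblasts make as well, lay lower without overlap, at 13.2, 14.1 and 17.4 rFPKM in transfer libraries, against 27.9, 32.2 and 27.8 in controls.

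Among stress and signalling lists none had a called member. In the hypoxia list 12 of 17 members were positive and 5 negative, with a median of 0.10. Without overlap, 3 members lay higher and 1 lower, against 1.97% and 3.90% of all genes. Among genes with a mean of at least 100, such as Bnip3, the share higher was 3.73%. Bnip3, a mitochondrial protein of the hypoxia response, was at 288, 359 and 304 rFPKM in transfer libraries, against 233, 194 and 241 in controls, without overlap (log2 fold change 0.51, 95% interval 0.05 to 0.96; limma adjusted p = 1). Il6 was at 37.7, 46.9 and 41.0 rFPKM in transfer libraries, against 32.7, 24.5 and 29.1 in controls, also without overlap (0.53, 95% interval -0.11 to 1.17). The list of NF-kB targets and cytokines had a median of 0.14, with 1 of 23 members higher and 0 lower without overlap. Among genes with a mean of 20 to 100, such as Il6, the share higher was 3.42%. Cdkn1a, the p21 inhibitor of the cell cycle, was at 317, 387 and 255 rFPKM in transfer libraries, against 323, 238 and 361 in controls, and the list of senescence and p53 genes had a median of -0.03.

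Receptors for extracellular nucleotides and adenosine were low. Of 24 purinergic genes 21 reached the filter, 8 positive and 13 negative, with a median of -0.17 and 0 called. P2ry2, a receptor for ATP and UTP, was at 4.10, 9.92 and 1.24 rFPKM in transfer libraries, against 1.03, 1.90 and 2.19 in controls, which overlapped. A fragment on 1 kb was worth about 0.34 rFPKM in transfer library 2 and 2.1 to 2.8 rFPKM in the others, so their values rest on few fragments. Gja1, connexin 43, which joins osteocytes in gap junctions, was at 97.5, 88.7 and 68.6 rFPKM in transfer libraries, against 87.2, 89.3 and 96.7 in controls. Panx1, a channel through which ATP leaves cells, lay at 15.8, 9.98 and 9.31 rFPKM in transfer libraries, against 4.74, 9.23 and 8.08 in controls, without overlap by a narrow margin (log2 fold change 0.61, 95% interval -0.43 to 1.66). Such a gap occurred in 1.97% of all genes and 2.54% of those with a mean of 5 to 20. Panx1 was the only positive member of the list of connexins and ATP release. The other 7 of 8 tested were negative, with a list median of -0.23 and 0 called. Of 20 Wnt genes 6 were positive and 14 negative, with a median of -0.15.

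Ribosomal protein genes gave the tightest values. Of 36 members 4 were positive and 32 negative, and 0 were called. The median of -0.13 lay near the -0.14 of all genes, against -0.07 for genes with a mean of at least 100. The list median was 0.03 with median-of-ratios scaling, against -0.06 over all genes. With the 12 rows kept it was 0.54 against 0.45 over all genes as deposited, and 1.01 against 0.77 when rescaled. Rpl32 was at 653, 652 and 761 rFPKM in transfer libraries, against 993, 766 and 1145 in controls, the lowest log2 fold change of the list at -0.48 (95% interval -0.94 to -0.01; limma adjusted p = 1). Over the 39 lists, 21 medians were positive and 18 negative, and of 608 different genes tested 0 were called.

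Among genes without overlap, with no predicted name and a higher-group mean of at least 5, the 8 of smallest p in each direction were mostly short RNAs and antigen receptor segments, several at a few fragments. Rnu3a, a U3 small nucleolar RNA of 213 bases, was listed at 0 in the 3 transfer libraries, against 21.2, 20.5 and 23.5 rFPKM in controls, which is about 2.1, 1.6 and 2.4 fragments. It had the smallest p of all genes (limma adjusted p = 0.397). Iglc4, a constant segment of the lambda light chain, was at 12.3, 5.66 and 6.26 rFPKM in transfer libraries, or about 1.4, 5.2 and 0.70 fragments, against 0 in the 3 controls. The other genes with higher values in this group were Ighv1-19, Igkv12-46, Snord34, Traj18 and Olfr269-ps1, beside Ifitm5 and mt-Rnr1. Those with lower values were Mir378d, Defb48, Rps15a-ps5, Traj21, Mir7057, Mir6404 and Ighv1-73.

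Among those with lower values only Rps15a-ps5, a processed pseudogene of a ribosomal protein gene, had values above 0 in 6 of 6 libraries. It was at 10.9, 13.1 and 11.4 rFPKM in transfer libraries, against 53.9, 41.1 and 36.1 in controls, without overlap (log2 fold change -1.79 ± 0.32 SE; 95% interval -2.51 to -1.06; limma adjusted p = 0.752). Fragments of such a copy are hard to tell from those of its parent gene, so its level is uncertain.

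Some abundant rows were high in some libraries and near 0 in others of the same group. Lars2, annotated as the mitochondrial leucyl-tRNA synthetase, was placed here among the rRNA-like and 7S rows, so its values may not measure that mRNA. It had 965, 1101 and 2824 rFPKM in transfer libraries, against 1836, 7.34 and 4.59 in controls. Control library 1 thus lay among the transfer libraries, and the log2 fold change was 5.03 (95% interval 0.88 to 9.18; limma adjusted p = 1). Without control library 1 it was 7.72 and the gene was called, at a limma adjusted p of 0.0139. Gm10222, a pseudogene, was at 2683, 2980 and 9.17 rFPKM in transfer libraries, against 6.69, 2174 and 1426 in controls, so it split both groups. Where it was high, it mirrored mt-Nd4l, which had 2718, 2978 and 1962 rFPKM in transfer libraries, against 1775, 2271 and 1425 in controls. The split of fragments between them is uncertain, so the values of Gm10222 may not measure its own expression.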

How the data were processed

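Per the labels' protocols, RNA was captured on oligo(dT) beads before sequencing. The authors deposited FPKM values. Per the submitters' processing notes HTSeq and the build mm10 were used, without a stated role; how FPKM were computed was not stated there. The FPKM of the 3 medium transfer and 3 control libraries were taken from 1 table and those of old cortical bone from another. The 12 rows were dropped and each library was rescaled to 1000000. FPKM are not counts, and too few low values were whole fragments (24.5% to 33.1% within 0.1) to recover counts, so no count test was run.

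Genes with a mean of at least 1 were tested as log2(value + 1) with limma 3.58.1 (R 4.3.3), a variance prior with a trend and no covariates, with Benjamini-Hochberg adjustment over 40477 genes and a threshold of 0.05. Fold changes on this scale understate those of low genes. Positions and sequences came from GENCODE M21 on GRCm38, which is mm10, and 55154 gene IDs matched it. Of values above 0, 0% were identical between any 2 libraries. The fit was run on simulated data with known changes, with a pass mark set only for small noise. That check does not measure what these libraries could resolve.

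The members and the gene lists were chosen with earlier results of these data known. Named genes are those of highest level, up to 4 of highest mean and 2 of smallest p in each list, fixed genes of bone biology, the most variable rows, and the 8 of smallest p in each direction whose libraries do not overlap, with no predicted name and the higher group averaging at least 5. Genes outside that rule were named after their values were seen. Other scalings, pseudocounts, filters, variance priors, library weights, a replicate block and the omission of each library were tried. A gene that the rule named is not reported here.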

Additional observations from a re-analysis of the deposited data

How the results depend on the processing

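Among 22 alternatives (21 planned), the count of called genes was 0 in the analysis above and 4 with the values as deposited (Cfd and Lars2 higher, Gm10800 and Gm10801 lower), 2 with the 12 rows kept and rescaled, 307 with library weights and 0 to 1 when single libraries were left out. The median level of Spp1 was 218036 rFPKM, and 39370 as deposited, 39451 with the 12 rows kept and 45710 when rescaled to the mean column sum; the lowest Spearman correlation between libraries was 0.62, and 0.74, 0.77 and 0.77 in the same settings. Leaving out single libraries moved it to 0.59 to 0.77, the level of Spp1 to 207740 to 228332 and the share of genes without overlap, 5.87% with 6 libraries, to between 11.3% and 20.5%, which fewer libraries raise by construction. Of 39 lists, 29 had a median above that of all genes, 11 to 36 without single libraries (11 without transfer library 2) and 17 of 36 with library weights and a mean of at least 20, chosen after seeing the data. A fit with the replicate number as a block called 0 genes (937 at an unadjusted p below 0.05); deviations of same-numbered libraries correlated at -0.16, -0.21 and -0.02, so the numbers were not taken to pair them. Of 851 list medians under the alternatives, 68 moved by more than the members' median SE. The cause of these shifts was not tested, apart from those that follow from the construction. Intervals were wide for genes with a mean under 20.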
